A study of Mus musculus with 3 samples.

Results

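The LPS receptor complex and the related RP105 complex were followed through 5 mouse genes, Tlr4, Ly96, Cd14, Cd180 and Ly86, in bone marrow-derived dendritic cells. These are antigen-presenting cells grown from marrow progenitors. The genes were taken by name, and every probe set whose platform annotation listed 1 of these symbols and no other was read. That gave 8 probe sets for the 5 genes (4 for Tlr4 and 1 for each of the others) among 45101 on the array, and 5 of 12299 measured genes. All 5 counted as measured, that is, the probe set standing for the gene reached an intensity of 78.9, the median of all values, on at least 1 array.

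Each of the 3 groups was a single array. One held dendritic cells kept for 24 h with 100 ng/mL of what is labelled PTX, an abbreviation the labels do not spell out, and its strain is written C57BL/7. Another held cells kept for 24 h with LPS (lipopolysaccharide, the outer membrane lipid of Gram-negative bacteria) at 1 µg/mL, from C57BL/6. The control held cells kept with PBS over the same period, also from C57BL/6. In every group the donors were female mice kept to an age of 6 weeks, the marrow was cultured with GM-CSF at 20 ng/mL, and the nonadherent cells of day 7 were used, which can include monocytic and macrophage-like cells as well as dendritic cells. The labels do not say whether the cultures shared a mouse or a marrow preparation, so such differences and the stimuli cannot be told apart. A single array per group leaves no spread to estimate and nothing to test against, so genes are described by their readings and by the size of the difference.

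Tlr4 encodes Toll-like receptor 4, a leucine-rich repeat receptor that signals through an intracellular TIR domain. Ly96 encodes MD-2, the small secreted protein that sits on the ectodomain of Tlr4 and holds the lipid part of LPS, and Cd14 encodes the surface protein that hands LPS to the pair. Cd180 encodes RP105, a relative of Tlr4 with a similar ectodomain and a short tail that has no TIR domain, and Ly86 encodes MD-1, the relative of MD-2 that RP105 needs to reach the cell surface. In mouse dendritic cells and macrophages RP105 with MD-1 is known to bind and restrain Tlr4 with MD-2, whereas in B cells it promotes growth signals.

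The genes of the RP105 pair lie apart on chromosome 13 and both read higher after PTX, so the stretches around their start sites are shown. They are from RefSeq (GRCm38.p6), which gave entries for 2 of the 5 genes, each running from 250 bases before the start to 50 after it. Cd180 has 2 entries, with start sites 11 bases apart, and the upstream one is printed. Capitals mark every match, on either strand, to 7 motifs: the interferon-stimulated response element core GAAANNGAA, the interferon response half-site GAAACT, the gamma-activated site TTCNNNGAA, the PU.1 core GAGGAA, NF-kB as GGGANTTTC, AP-1 as TGANTCA and the cyclic AMP response element TGACGTCA.
Ly86, chr13:37345095-37345394, plus strand: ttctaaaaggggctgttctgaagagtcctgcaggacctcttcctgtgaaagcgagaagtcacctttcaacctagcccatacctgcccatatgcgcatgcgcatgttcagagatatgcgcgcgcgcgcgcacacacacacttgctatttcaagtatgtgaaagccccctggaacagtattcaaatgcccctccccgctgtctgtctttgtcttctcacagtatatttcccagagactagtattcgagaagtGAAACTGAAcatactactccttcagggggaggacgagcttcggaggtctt
Cd180, chr13:102693297-102693596, plus strand: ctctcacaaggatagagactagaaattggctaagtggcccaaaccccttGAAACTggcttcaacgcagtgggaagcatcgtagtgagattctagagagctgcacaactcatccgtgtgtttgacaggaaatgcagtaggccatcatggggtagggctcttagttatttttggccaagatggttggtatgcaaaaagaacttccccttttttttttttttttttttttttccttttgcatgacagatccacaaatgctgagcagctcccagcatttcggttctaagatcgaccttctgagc

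The Ly86 stretch held 1 match to the response element core, which began at its annotated start site (position 1) and overlapped 1 match to the half-site. The Cd180 stretch held 1 match to the half-site, at position -201, and none to the core. Of 32851 such stretches in the table, 8.56% held the core and 15.8% the half-site, so both matches are common. No other motif matched either stretch, and the shares over the table were 8.3% for the gamma-activated site, 28.3% for the PU.1 core, 1.11% for NF-kB, 7.81% for AP-1 and 1.79% for the cyclic AMP response element. These matches describe letters in a short window and do not show binding.

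Across the arrays the main contrast lay between the RP105 pair and the LPS receptor genes. Cd180 and Ly86 were both more than 3-fold higher with PTX than with PBS, while Ly96, Cd14 and all 4 probe sets of Tlr4 were within 2-fold. With LPS the RP105 pair parted, since Cd180 was at least 4.48-fold lower than with PBS on the arrays as deposited and Ly86 read nearly the same. Differences below are on the log2(intensity + 16) scale, where 1 is close to 2-fold for a bright probe set, and intensities are as deposited on a linear scale.

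**Figure D1:**
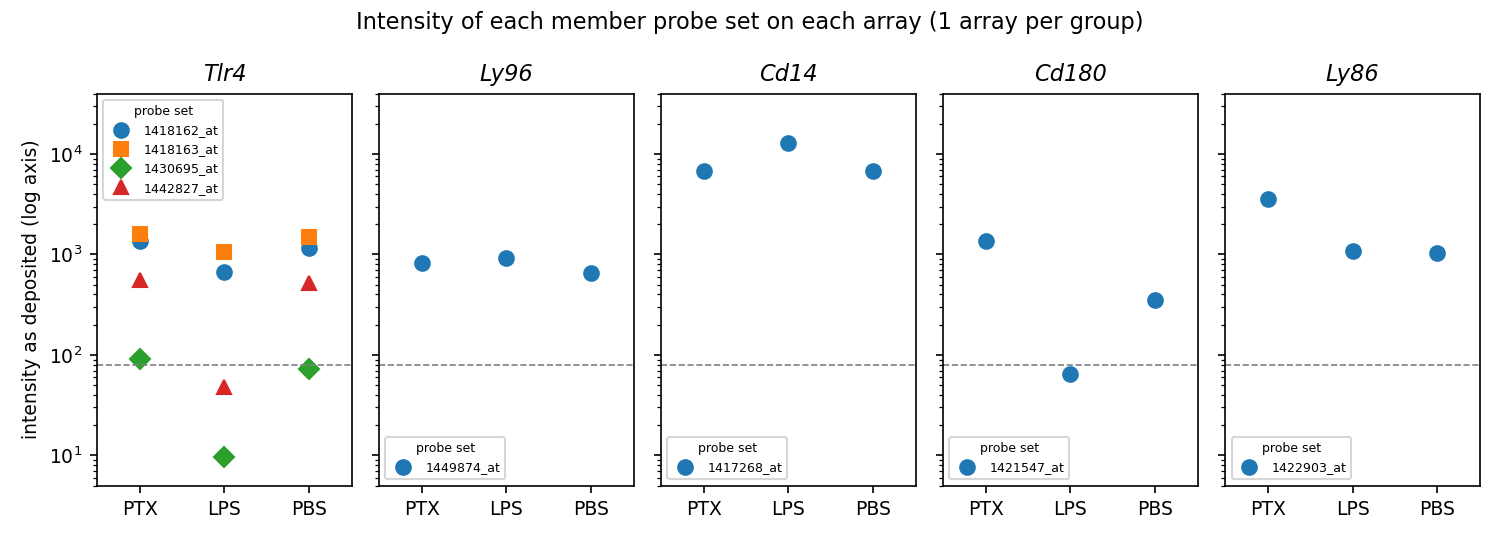
Intensity as deposited (log axis) of each probe set of the 5 genes on the PTX, LPS and PBS arrays, 1 array per group, with the dashed line at 78.9, the level for a measured gene. Cd180 reads 1355, 65.0 and 354 and Ly86 3563, 1095 and 1029 on the PTX, LPS and PBS arrays, and the 2 Tlr4 probe sets listed with tag records (1430695_at and 1442827_at) lie below the line on the LPS array.

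Cd180 read 1355 in PTX-treated cells, 65.0 in LPS-treated cells and 354 in PBS cells. PTX stood highest and LPS lowest, and the LPS reading was under the level for a measured gene. The difference was 1.89 in PTX against PBS (3.83-fold), the 109th highest of 12299 measured genes. The LPS reading was dim, so bounds were taken with it raised to 78.9 and the arrays as deposited. Cd180 was then at least 4.48-fold lower in LPS-treated than in PBS cells. It was at least 17.2-fold higher in PTX-treated than in LPS-treated cells. On the log2 scale the readings as deposited gave -2.19 in LPS against PBS and 4.08 in PTX against LPS, and the raised ones -1.96 and 3.85. Median centring without that floor gave -1.85 and 3.72, so the bounds hold only for arrays that are not rescaled. Cd180 thus lay on opposite sides of the PBS level after the 2 stimuli. A single probe set read it, so its readings have no second probe set beside them.

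Ly86 read 3563 in PTX-treated cells, 1095 in LPS-treated cells and 1029 in PBS cells. The PTX reading stood alone at the top, and the LPS and PBS readings differed by 6.37%. The difference was 1.78 in PTX against PBS (3.46-fold), the 124th highest of the measured genes, and 1.69 in PTX against LPS (3.25-fold). In LPS against PBS it was 0.09 as deposited, with -0.05 when arrays were centred on the bacterial RNAs added before hybridization and -0.28 when centred on those added to the RNA sample (poly-A controls), so no direction is given. After PTX the differences of Cd180 and its partner lay within 0.12 of each other, whereas after LPS they were far apart (-2.28 for Cd180 minus Ly86).

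Tlr4 was read by 4 probe sets that split into pairs. The one that stands for the gene, 1418163_at, read 1581 in PTX-treated cells, 1055 in LPS-treated cells and 1482 in PBS cells. The other probe set designed on the same messenger RNA record, 1418162_at, read 1358 with PTX, 676 with LPS and 1161 with PBS. Both placed LPS lowest, with differences in LPS against PBS of -0.48 and -0.77, each within 2-fold, and in PTX against LPS of 0.58 and 0.99.

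The other pair was listed with expressed sequence tag records and differed far more. Probe set 1442827_at read 558 in PTX-treated cells, 47.4 in LPS-treated cells and 524 in PBS cells (-3.09 in LPS against PBS as deposited). With its LPS reading raised to the level for a measured gene, it was at least 6.64-fold lower in LPS-treated than in PBS cells. That bound too holds only for arrays that are not rescaled. Probe set 1430695_at read 91.2 with PTX, 9.72 with LPS and 72.6 with PBS. Its LPS and PBS readings both lay under that level, so no order or fold is given between them. The other 3 probe sets had their lowest reading on the LPS array.

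The Tlr4 probe sets spanned 2.60 between their lowest and highest difference in LPS against PBS. Among 5519 genes with several measured probe sets the median span was 0.73, and 5.40% had a span at least as wide. Among the 999 genes with 4 or more it was 14.4%. With every reading under the level raised to it, the span was 2.51, against a median of 0.60, and 3.41% of genes had one at least as wide. In PTX against PBS the same 4 probe sets lay close together, between 0.09 and 0.28, a span of 0.19. Whether Tlr4 counted as 2-fold lower after LPS therefore depended on the probe sets read, and which part of the transcript each one reads was not examined here.

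Ly96, the MD-2 gene, read 816 in PTX-treated cells, 922 in LPS-treated cells and 653 in PBS cells. PBS was lowest and both differences against it were small, 0.31 in PTX and 0.49 in LPS. Both stayed above 0 and within 2-fold in all 13 processing settings, the one reported and the alternatives. PTX against LPS gave -0.17, which became 0.24 with centring on poly-A controls.

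Cd14 read 6714 in PTX-treated cells, 12727 in LPS-treated cells and 6827 in PBS cells. LPS stood apart at 1.86-fold the PBS reading, and PTX and PBS differed by less than 2%. The difference in LPS against PBS was 0.90, under the 2-fold line, and it passed that line with median centring (1.29) and 75th percentile centring (1.20) but not with quantile normalization (0.45). Of all measured genes 92.3% had a lower difference in LPS against PBS than Cd14. In PTX against LPS Cd14 differed by -0.92, and 7.25% of genes had a lower difference.

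Counted against all genes, 2 of the 5 genes (Cd180 and Ly86) were at least 2-fold higher in PTX against PBS, where 3.04% of the 12299 measured genes were, and 0 were at least 2-fold lower, where 2.37% were. In LPS against PBS, 0 of 5 were at least 2-fold higher against 6.5% of all, and 1 of 5 (Cd180) was at least 2-fold lower against 13%. In PTX against LPS, Cd180 and Ly86 were at least 2-fold higher, against 13.7% of all genes, and 0 were lower, against 6.24%. Over the 5 genes the median difference was 0.31 in PTX against PBS (0.01 over all measured genes), 0.09 in LPS against PBS (-0.08) and 0.58 in PTX against LPS (0.09). With so few genes these counts describe the genes named.

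Brightness changes how often a 2-fold difference is met, so each member was also set beside the tenth of measured genes nearest to it in mean log2 intensity. In the tenth that holds Cd180, 2.44% of 1229 genes were at least 2-fold higher in PTX against PBS and 10.4% at least 2-fold lower in LPS against PBS. In the tenth that holds both Ly86 and Tlr4, 5.93% were at least 2-fold higher in PTX against PBS.

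**Figure D2:**
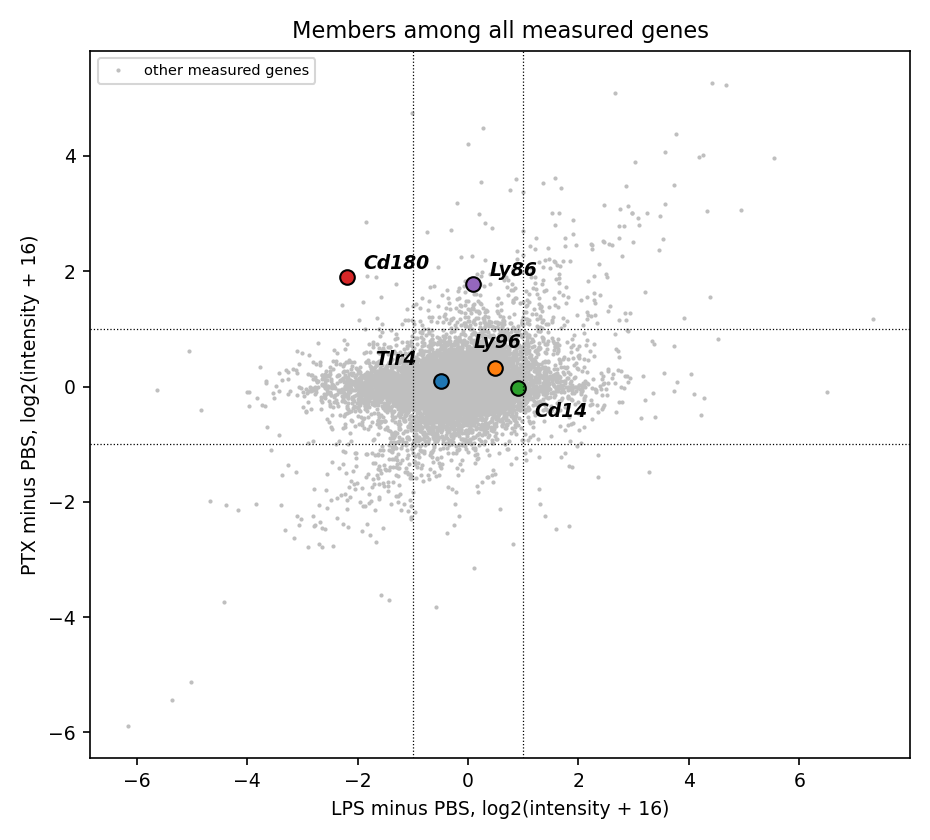
Each point is 1 of 12299 measured genes, with its LPS minus PBS difference on the x axis and its PTX minus PBS difference on the y axis, both of log2(intensity + 16), and dotted lines at 2-fold. Cd180 sits at the upper left (-2.19 and 1.89) away from the mass of genes, Ly86 lies above the middle (0.09 and 1.78), and Tlr4, Ly96 and Cd14 lie inside the 2-fold lines.

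By the readings as deposited of the probe set that stands for each gene, the combination was rare for Cd180 and common for Tlr4. Another Tlr4 probe set, 1442827_at, lay at -3.09 in LPS against PBS, with 0.68% of measured probe sets at or below it. Likeness was measured as the distance between genes in the plane of the PTX minus PBS and LPS minus PBS differences, over 3 arrays that share the PBS reading and, for Cd180, with an LPS reading under the level for a measured gene. Within a distance of 0.25 lay 0 measured genes for Cd180, 13 for Ly86, 354 for Cd14, 675 for Ly96 and 1111 (9.03%) for Tlr4. The 0 for Cd180 depends on its LPS reading as deposited. With that reading raised to the level for a measured gene, Cd180 lay at -1.96 in LPS against PBS and 1.89 in PTX against PBS. Arhgap15, whose own readings were above that level, lay at -1.84 and 1.92, within 0.25 of the raised Cd180. The genes near the raised Cd180 were not counted.

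By the readings as deposited, Arhgap15 was nearest to Cd180 (distance 0.35). Ifitm6 of the interferon-induced transmembrane family (0.49) and Pld4 of the phospholipase D family (0.50) followed. Arhgap15 read 1282 in PTX-treated cells, 80.3 in LPS-treated cells and 328 in PBS cells. Nearest to Ly86 were Tmem140 (0.05), Cd300c2, a CD300 family receptor (0.06), and Elmod1 (0.07). For Ly96 they were Cln6, Unc13d and Slc66a2, for Cd14 Actrt1, Rp1l1 and Exd2, and for Tlr4 Slc6a19os, Otud7a and Tox3, at distances between 0.0038 and 0.020. Some of these genes were dim. Elmod1 lay under the level for a measured gene with LPS (23.15) and PBS (22.46). Actrt1 and Rp1l1 lay under it with PTX and PBS, and Slc6a19os, Otud7a and Tox3 with LPS. Neighbours this close in 3 readings show likeness on these arrays only.

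Genes that work around the receptor were then read from 8 lists, which hold 89 symbols, of which 77 were measured. In PTX against PBS 9 of the 77 (11.7%) were at least 2-fold higher and 1 (1.30%) lower, beside 3.04% and 2.37% of all measured genes. In LPS against PBS 10 (13.0%) were higher and 6 (7.79%) lower, beside 6.5% and 13% of all. In PTX against LPS 10 (13.0%) were higher and 5 (6.49%) lower, close to the 13.7% and 6.24% over all genes. The counts of each list below are to be read beside these shares, and each gene is counted by the probe set that stands for it.

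By the probe set that stands for each gene, all 16 measured adaptors and kinases below Tlr4 were within 2-fold in all 3 comparisons, with medians of 0.10 in PTX against PBS and -0.24 in LPS against PBS. Myd88, the adaptor of most Toll-like receptors, differed by 0.47 in PTX and 0.32 in LPS, and Ticam1, the adaptor for interferon induction, by 0.50 and 0.25. Other probe sets of 5 of the genes went past 2-fold. All 5 others of Ikbkg, the regulatory subunit of the IkB kinase, lay between -1.54 and -1.15 in PTX against PBS. In LPS against PBS the lowest other probe set lay at -1.69 for Map3k7, -1.64 for Irak1, -1.35 for Traf6, -1.28 for Ikbkg and -1.17 for Irf3, so these genes have no single reading.

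Of 7 genes for folding and transport of Toll-like receptors, Unc93b1, which carries the nucleic acid-sensing receptors to endosomes, was 2-fold higher in PTX (1.04) and 6 were within 2-fold. The chaperone Hsp90b1 (-0.08 in PTX, 0.16 in LPS) and its cofactor for Toll-like receptors Cnpy3 (0.07 in PTX, 0.28 in LPS) were among the 6, although the other probe set of Hsp90b1 lay at -1.47 in LPS against PBS. For Tmed7, also among the 6, the highest other probe set lay at 1.36 in LPS against PBS.

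Among 10 other Toll-like receptors 5 were at least 2-fold higher in PTX against PBS (median 0.87) and 1 in LPS against PBS (median 0.23). Tlr1, which pairs with Tlr2 for triacyl lipopeptides, read 632 with PTX, 890 with LPS and 98.6 with PBS, so it was high after both stimuli. Tlr3 (2.05), Tlr8 (1.27), Tlr7 (1.11) and Tlr13 (1.10), which sense nucleic acids in endosomes, were the others in PTX, and 0 of the 2 other measured probe sets of Tlr7 was 2-fold higher. Tlr2 was within 2-fold in both (-0.43 in PTX, 0.35 in LPS).

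Of 10 genes for LPS delivery and other LPS binding, 2 were at least 2-fold higher in PTX against PBS. In LPS against PBS 4 were higher and 2 lower. Aoah, the enzyme that removes acyl chains from LPS and inactivates it, read 1099 in PTX-treated cells, 1428 in LPS-treated cells and 279 in PBS cells. Its 2 other measured probe sets lay between 0.23 and 1.15 in PTX against PBS and between -0.81 and 1.80 in LPS against PBS, so the probe sets disagreed after LPS. Casp4, the mouse caspase that senses LPS in the cytosol, read 1408 with PTX, 1476 with LPS and 592 with PBS. The scavenger receptor gene Marco stood far highest on the LPS array, with readings of 494 with PTX, 6632 with LPS and 273 with PBS, and its other measured probe set differed by 4.45 in LPS against PBS. Gsdmd, the pore-forming target of Casp4, was also higher in LPS (1.15), and Lbp, the serum carrier of LPS (-1.50), and the scavenger receptor gene Cd36 (-1.22) were lower.

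The inhibitors of Tlr4 signalling went in both directions with LPS, with 3 of 14 higher and 3 lower. Socs1 read 78.7 in PTX-treated cells, 581 in LPS-treated cells and 67.3 in PBS cells. Irak3, the kinase-like brake on Myd88 signalling, differed by 0.48 in PTX and 1.73 in LPS, and Tnfaip3, the A20 gene, by -0.87 in PTX and 1.12 in LPS. Sarm1 (-1.56), Sigirr (-1.11) and Dok2 (-1.09) were lower in LPS. In PTX against PBS Pik3ap1 was higher (1.21), Dok2 lower (-1.19) and 12 within 2-fold. Pik3ap1 lay at 0.99 in LPS against PBS, and its other measured probe set at 0.92 in PTX and 1.34 in LPS.

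Of 12 genes for uptake and turnover of the LPS receptor, all were within 2-fold in PTX against PBS and 1 was lower in LPS against PBS. That gene, Pik3cd, a lipid kinase subunit active in Tlr4 uptake, read 2420 with PTX, 291 with LPS and 2476 with PBS (-3.02), but its 4 other measured probe sets lay between -1.28 and 0.09 and 1 of them was 2-fold lower. In LPS against PBS the lowest other probe set lay at -3.90 for Syk and -1.29 for Arf6, both within 2-fold by the probe set that stands for the gene. The 6 measured B cell signalling partners of Cd180 were all within 2-fold in PTX, and Blk, a Src-family kinase gene that read 40.0 with PTX, 106 with LPS and 38.4 with PBS, was higher in LPS. The other probe set of Vav2 lay at 1.54 in LPS against PBS. Of the other MD-2-related proteins that bind lipids, Gm2a was within 2-fold in both. Npc2 differed by 0.71 in PTX and 1.08 in LPS, and its 3 other measured probe sets lay between 0.87 and 2.09 in PTX and between -0.81 and 1.37 in LPS, so they too disagreed after LPS.

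**Figure D3:**
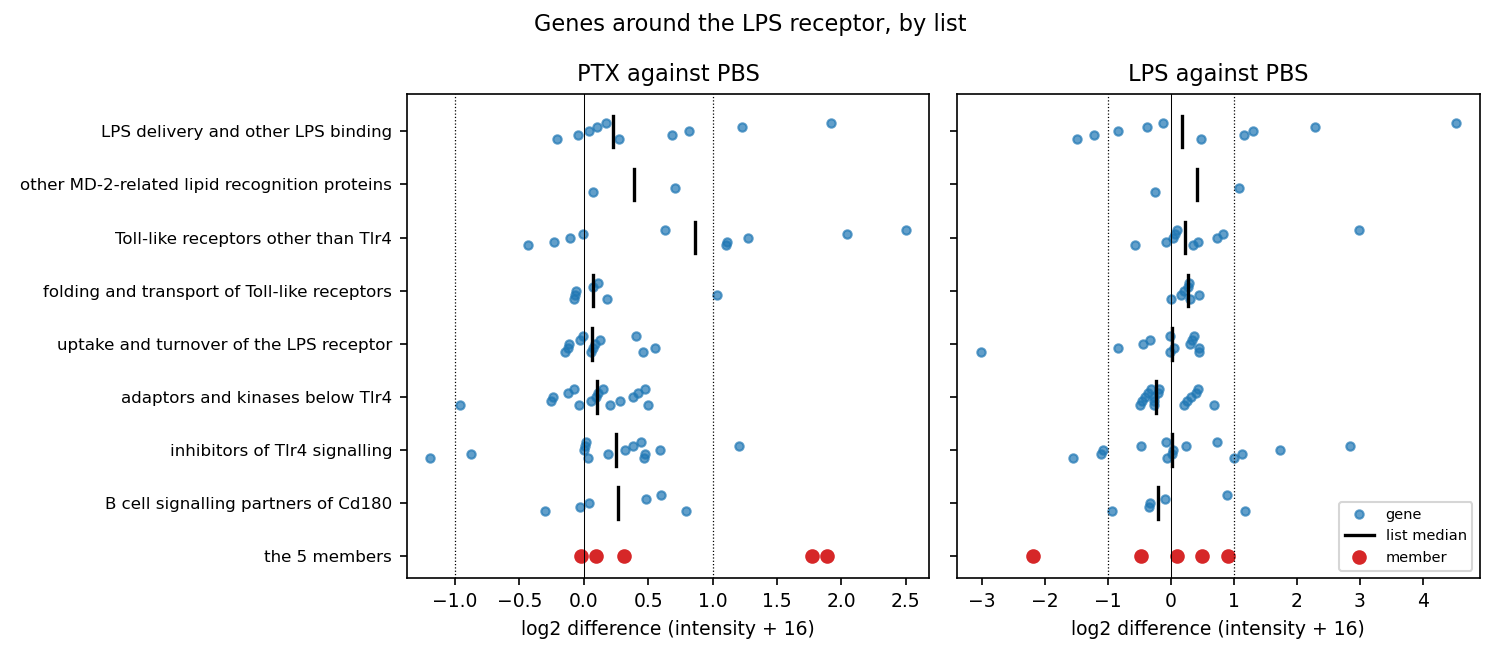
Log2 differences of the measured genes of 8 lists around the LPS receptor (blue points, with the list median as a bar) and of the 5 receptor genes (red) in PTX against PBS on the left and LPS against PBS on the right, with dotted lines at 2-fold. Each point is the probe set that stands for the gene. The adaptors and kinases stay inside the lines in both panels, though other probe sets of 5 of them do not, and the other Toll-like receptors reach 2.50 in PTX.

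Markers of the cells a culture could hold were read beside these genes. All 14 dendritic cell markers were measured, with 3 at least 2-fold higher in PTX and 5 in LPS against PBS, and 0 lower in either. Flt3 (1.78 in PTX, 1.33 in LPS), Cd83 (1.20 and 1.53) and Irf8 (1.16 and 1.07) were higher in both. The other probe set of Irf8 lay at 1.06 in PTX and -0.54 in LPS. Ccr7 (0.74 and 1.39) and Batf3 (0.04 and 1.13) passed 2-fold with LPS. Itgax, the gene of the surface integrin CD11c, read 1294 with PTX, 1691 with LPS and 2383 with PBS, and H2-Ab1, an MHC class II gene, read 6480 with PTX, 7849 with LPS and 5527 with PBS. In bulk RNA, fewer cells of a type and less RNA per cell cannot be told apart. Since RP105 is abundant on B cells, the B cell list was summed over its 13 genes with a probe set, giving 1440 in PTX-treated cells, 1051 in LPS-treated cells and 1884 in PBS cells. Vpreb3 alone read 181 with PTX, 39.9 with LPS and 788 with PBS, and without it the sum over 12 genes was 1259 with PTX, 1011 with LPS and 1096 with PBS. Cd79a, Cd79b, Ms4a1 and Pax5, which define B cells, were under the level for a measured gene on every array, and 0 of the 5 measured markers was 2-fold higher in PTX against PBS. Cd22, a B cell lectin receptor, read 360 with PTX, 91.5 with LPS and 204 with PBS, the same order of arrays as Cd180. The part of B cell content in the Cd180 reading was not tested.

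Macrophage and monocyte markers moved with the RP105 pair in part. Their sum over 13 genes was 53124 with PTX, 52821 with LPS and 36526 with PBS, and 3 of 11 measured genes were at least 2-fold higher in PTX and 4 in LPS. Mertk, a receptor for dying cells, read 1841 with PTX, 609 with LPS and 524 with PBS, the same order as Ly86. Fcgr1, a high-affinity IgG receptor (2.79 in PTX, 2.73 in LPS), and Siglec1, a sialic acid-binding receptor (2.93 and 3.07), were higher after both stimuli, and Adgre1, the F4/80 gene (0.73 and 1.40), and Cd68 (0.83 and 1.17) passed 2-fold with LPS. The Siglec1 values rest on a PBS reading of 17.8, under the level for a measured gene. Its 2 other measured probe sets lay between 0.19 and 2.70 in PTX and between 0.13 and 1.18 in LPS, so they disagreed. Mrc1, the mannose receptor gene, was lower with LPS (-2.05). The complement genes C1qa, C1qb and C1qc lay at 0.89, 0.74 and 0.99 in PTX and at -0.65, -0.63 and -0.72 in LPS, the same order of arrays as Cd180, and the 2 other probe sets of C1qb were both past 2-fold in LPS (-1.09 for the higher one). The part of macrophage content in the Cd180 and Ly86 readings was not tested.

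Markers of further cell types were summed in the same way. The 7 plasmacytoid dendritic cell markers summed to 1668 with PTX, 939 with LPS and 1342 with PBS. Among them Tcf4, a transcription factor of these cells, read 787 with PTX, 126 with LPS and 452 with PBS, and Ccr9, a chemokine receptor, 164 with PTX, 36.5 with LPS and 137 with PBS, the same order of arrays as Cd180. Cox6a2 had the opposite order, at 115 with PTX, 259 with LPS and 205 with PBS. Klk1 and Cd209d were within 2-fold in every comparison, though the other probe set of Klk1 lay at 4.34 in LPS against PBS. Siglech and Pacsin1 were not measured. Mast cell and eosinophil markers summed to 800.3 with PTX, 2814 with LPS and 1083 with PBS, with Prg2 (3.28) and Cpa3 (2.33) higher in LPS against PBS. Siglecf from the same list was lower after both stimuli, at 63.1 with PTX, 43.9 with LPS and 250 with PBS. Neutrophil markers summed to 14126 with PTX, 18152 with LPS and 17988 with PBS, most of it from Mmp8 and S100a8. Csf3r from that list read 1329 with PTX, 204 with LPS and 303 with PBS, the same order of arrays as Cd180. S100a8, Camp and Ngp had the opposite order. Erythroid and megakaryocyte markers summed to 6007 with PTX, 6533 with LPS and 5841 with PBS. Most of that was Pf4 (5523 with PTX, 6024 with LPS, 5351 with PBS), and Hba-a1, Klf1 and Gata1 were not measured. T and NK cell markers summed to 809 with PTX, 688 with LPS and 753 with PBS, and stromal markers to 520.4 with PTX, 798 with LPS and 527 with PBS. The stromal markers went both ways with LPS. Dcn read 52.5 with PTX, 373 with LPS and 40.8 with PBS, and Cxcl12 read 152 with PTX, 25.3 with LPS and 170 with PBS. Col1a1, Col3a1, Pdgfrb, Lum and Thy1 were not measured. The part of these cells in the Cd180 and Ly86 readings was not tested.

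The LPS array differed from the other arrays as a whole. Across the probe sets, intensities had a median of 87.0 with PTX, 65.4 with LPS and 85.8 with PBS. Bacterial poly-A control RNAs, added to each RNA sample, read higher with LPS than with PBS in 24 of 24 probe sets (median 0.26). How the arrays are scaled moves the median of all genes in LPS against PBS from -0.08 as deposited to values between -0.44 and 0.31, and with median centring 1620 genes were at least 2-fold higher and 1017 lower in place of 799 and 1601. Relative to the median of all genes as deposited, Cd180 lay at -2.11, Tlr4 at -0.40, Ly86 at 0.17, Ly96 at 0.57 and Cd14 at 0.98 in LPS against PBS. In PTX against PBS that median stayed between -0.03 and 0.05.

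**Figure D4:**
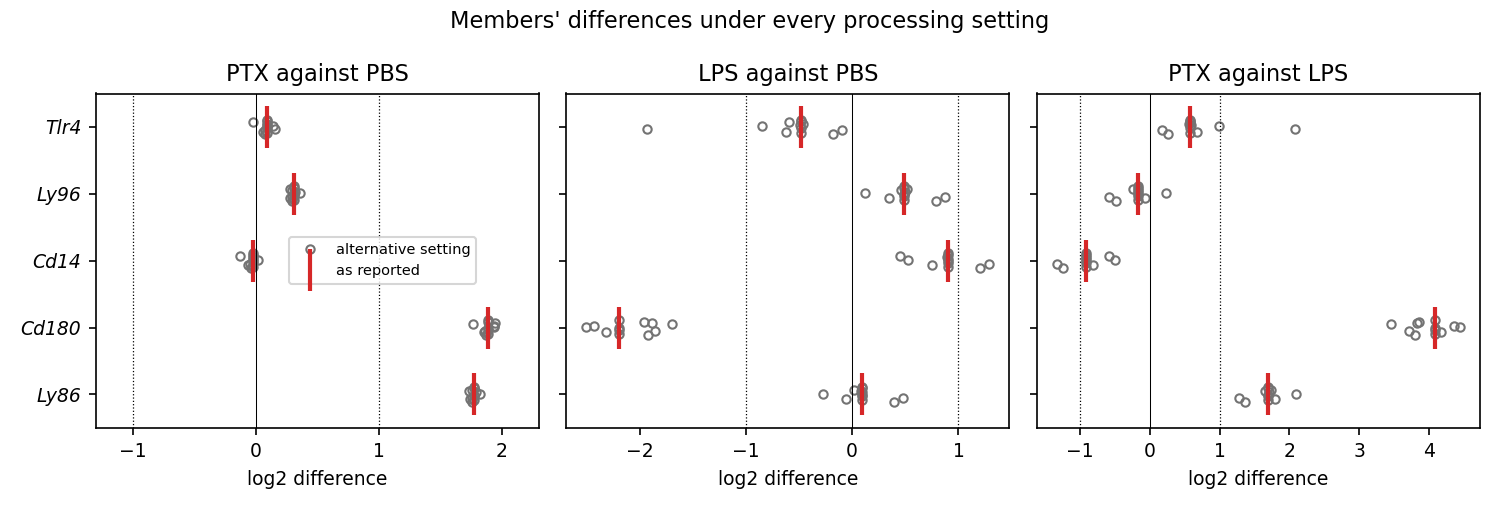
Log2 difference of each of the 5 genes in the 3 comparisons under the reported processing (red bar) and the alternatives (open circles), with dotted lines at 2-fold. Cd180 stays between 1.76 and 1.95 in PTX against PBS and between -2.50 and -1.69 in LPS against PBS, while Tlr4 reaches -1.93 in LPS against PBS when all its probe sets are used.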

How the data were processed

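Per the labels, Affymetrix arrays were hybridized with biotin-labelled cRNA made from 3 µg of total RNA. The authors deposited linear intensities, 1 for each probe set on each array. How they summarized, background-corrected and scaled the probes is not stated by the labels used here. The intensities were not rescaled, and a pseudocount of 16 was added before log2, so that differences of dim probe sets are shrunk. Of 45101 probe sets, 64 were controls, and 34958 had 1 gene symbol in the platform annotation and entered the gene comparisons. The probe set with the highest mean log2 level stood for its gene, and the gene was measured if any array reached the median of all values (78.9) there.

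PTX was compared with PBS, LPS with PBS and PTX with LPS, on 1 array each. Genes at least 2-fold apart were counted, without a test. Precision is limited by the number of arrays. The PBS array served both stimuli, so those comparisons share its errors. The counting was tested on simulated data.

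The 5 genes and the lists were chosen with earlier results of these data known. Named are all probe sets of the 5 genes and the 3 genes nearest to each of the 5 in pattern. Of the lists around the receptor, all genes at least 2-fold apart in PTX or LPS against PBS are named. This does not hold for PTX against LPS or for the marker lists. Other genes were named after their values were seen. Alternatives covered the pseudocount, scaling, filter and choice of probe set. A floor on dim readings and centring on poly-A controls were added after seeing the data. Calculations used Python 3.11.15, pandas 2.3.3 and numpy 2.4.6.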

Additional observations from a re-analysis of the deposited data

How the results depend on the processing

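Cd180 and Ly86 stayed at least 2-fold higher in PTX against PBS and in PTX against LPS, and Cd180 at least 2-fold lower in LPS against PBS, in all 13 settings. Ly86 ranged from 1.73 to 1.82 in PTX against PBS, and Cd180 from 3.46 to 4.44 in PTX against LPS. Tlr4 passed the 2-fold line with the median over its probe sets, at -1.93 in LPS against PBS and 2.08 in PTX against LPS, because that setting reads all 4 probe sets, 1 of them under the level for a measured gene with both LPS and PBS. Cd14 passed it with median centring (1.29 in LPS against PBS, -1.33 in PTX against LPS) and with 75th percentile centring (1.20 and -1.24). Under each of these 3 settings the LPS against PBS comparison held 2 of the 5 genes past 2-fold, in place of 1. Within 2-fold, Tlr4 in PTX against PBS turned to -0.02 with quantile normalization and Cd14 to 0.02 with poly-A control centring.

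Counts over all genes moved more. Genes at least 2-fold higher in LPS against PBS numbered 1620 with median centring and 1367 with 75th percentile centring, and those lower numbered 1017 with median centring, 1019 with a pseudocount of 64 and 775 with the filter at the 75th percentile. In PTX against LPS, 1042 were higher with median centring, 1101 with a pseudocount of 64 and 883 with the filter at the 75th percentile, and 1754 and 1466 were lower with median and 75th percentile centring. The stricter filter tests fewer genes, and for the others the cause was not tested. No paired analysis was possible because each group held 1 array. Signal limits the dim readings, since the LPS reading of Cd180 and those of 2 Tlr4 probe sets lay under the level for a measured gene.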
